A study of Homo sapiens with 16 samples.

Results

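The genes described here are 155 zinc finger genes of human chromosome 19, measured in 2 breast cancer lines after a guide RNA against YES1 or a non-targeting guide. They are the protein-coding genes of chromosome 19 whose name is ZNF and a digit, and whose raw counts summed to at least 200 over the 8 libraries of each line. Of 249 such names among 58735 genes, 155 passed in both lines, 50 passed in MDA-MB-231 only, 3 passed in SUM159PT only and 41 passed in neither. They were thus chosen by their summed counts in each line, so their levels in the 2 lines are a description. The rule itself uses no effect of the guide, although the group was proposed with earlier results of these data known. The genes nearest the limit on the inside were ZNF486 (203 counts in its lower line), ZNF222 and ZNF573 (219 each). Just outside were ZNF235 (169 counts in its lower line), ZNF726 (175) and ZNF493 (186). The transcription factor column of the authors' tables places 149 of the 155 in the C2H2 family, and ZNF8, ZNF414, ZNF428, ZNF738, ZNF761 and ZNF888 have no entry there.

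MDA-MB-231 and SUM159PT are established human lines of triple-negative breast cancer, labelled wild type before transfection. Cells received sgNTS, a non-targeting guide, or sgYES1, a guide directed at the Src-family kinase gene YES1, by lipofection, and were collected 48 h after transfection. The 16 RNA-seq libraries form 4 groups of 4 replicates (MDA-MB-231 sgNTS, MDA-MB-231 sgYES1, SUM159PT sgNTS and SUM159PT sgYES1), which the submitters call technical, so p-values measure only the spread between these samples. The title of the series places them in a study of mitotic fidelity and the response to taxanes.

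C2H2 zinc finger proteins bind DNA through tandem fingers, each a short fold held by a zinc ion, and the order of the fingers sets the sequence that is read. Many of those on chromosome 19 lie in tandem arrays that arose by duplication, and many carry a KRAB domain. A KRAB domain recruits the scaffold protein TRIM28, with the histone methyltransferase SETDB1 and HP1 proteins, and the resulting heterochromatin silences transposable elements and some genes.

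Promoters of members that moved in both lines are shown first, so that start regions of genes that rose together can be compared with those of genes that moved apart. Each runs from 250 bases before to 50 bases after the RefSeq start in GRCh38.p14, 5′ to 3′ on the gene's own strand, and capitals mark CCGGAAG or its reverse complement, the core bound by ETS factors. ZNF296 (chr19:45076429-45076728, minus strand), ZNF557 (chr19:7069453-7069752, plus strand) and ZNF432 (chr19:52048789-52049088, minus strand) rose in both lines. ZNF419 (chr19:57487500-57487799, plus strand) and ZNF558 (chr19:8832255-8832554, minus strand) rose in MDA-MB-231 and fell in SUM159PT.
ZNF296: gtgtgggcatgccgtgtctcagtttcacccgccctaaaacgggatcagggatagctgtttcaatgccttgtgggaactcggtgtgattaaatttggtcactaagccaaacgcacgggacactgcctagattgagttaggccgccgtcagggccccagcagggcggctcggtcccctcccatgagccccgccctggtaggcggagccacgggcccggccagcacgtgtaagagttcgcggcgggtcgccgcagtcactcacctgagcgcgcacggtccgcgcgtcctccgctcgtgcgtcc
ZNF557: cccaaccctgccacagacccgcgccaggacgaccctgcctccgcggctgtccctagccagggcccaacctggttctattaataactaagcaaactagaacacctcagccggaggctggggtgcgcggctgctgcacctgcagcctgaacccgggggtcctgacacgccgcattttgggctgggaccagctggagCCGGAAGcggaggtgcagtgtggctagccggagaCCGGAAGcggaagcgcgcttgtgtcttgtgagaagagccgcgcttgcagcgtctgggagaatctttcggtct
ZNF432: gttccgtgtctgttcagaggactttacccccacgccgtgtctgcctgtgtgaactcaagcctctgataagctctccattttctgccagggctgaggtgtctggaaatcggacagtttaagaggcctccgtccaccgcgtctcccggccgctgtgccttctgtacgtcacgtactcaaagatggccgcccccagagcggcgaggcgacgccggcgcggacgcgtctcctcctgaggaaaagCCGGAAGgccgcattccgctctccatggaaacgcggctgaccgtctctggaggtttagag
ZNF419: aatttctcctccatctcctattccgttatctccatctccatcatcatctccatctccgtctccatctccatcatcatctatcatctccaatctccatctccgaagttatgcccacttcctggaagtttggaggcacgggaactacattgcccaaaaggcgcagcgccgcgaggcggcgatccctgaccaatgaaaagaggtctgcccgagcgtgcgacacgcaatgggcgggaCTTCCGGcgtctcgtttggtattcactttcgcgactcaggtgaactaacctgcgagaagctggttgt
ZNF558: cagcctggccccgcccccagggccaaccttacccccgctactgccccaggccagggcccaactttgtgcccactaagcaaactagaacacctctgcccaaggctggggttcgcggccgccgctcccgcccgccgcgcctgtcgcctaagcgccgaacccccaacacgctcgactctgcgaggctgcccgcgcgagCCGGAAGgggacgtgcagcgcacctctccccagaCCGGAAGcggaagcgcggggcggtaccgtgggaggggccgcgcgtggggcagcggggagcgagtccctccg

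The core occurred in all of these except ZNF296, whose window held 3 GC boxes (GGGCGG on either strand) and no core. ZNF557 and ZNF558, from the same group of genes on the short arm, each had a pair of cores 34 bases apart, the first starting 56 and 55 bases before the start. Aligned on the first core without gaps, 142 of 299 bases (47.5%) of these windows were identical. Stretches that both windows hold at different distances from the core, such as actaagcaaactagaacacct, were therefore not matched to each other. Both genes were picked by their response to the guide, which differed in SUM159PT. That difference was therefore set by the choice, and a link between cores and response was not tested.

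Of the 155 members, 141 matched a RefSeq promoter. The ETS core on either strand was in 64 of them (45.4%), against 38.7% of 168 promoters of ZNF genes on other chromosomes, 21.2% of 8702 promoters of protein-coding genes over the same count limit, and 10.3% of all 35114 windows of 300 bases. The CCAAT box (CCAAT, either strand) was in 50.4%, 42.9%, 37.0% and 34.6% of the same sets, in that order. The GC box was in 64.5% of members' promoters, close to 65.5% for other ZNF genes and below 72.5% for protein-coding genes over the limit, while 45.0% of all windows held it. A motif for TATA boxes (TATAAA, either strand) was in 2.13% of members' promoters, 4.83% of those of protein-coding genes over the limit and 11.5% of all windows. That for AP-1 (TGACTCA, either strand) was in 2.13%, 2.79% and 4.95% of these sets. Members that rose in MDA-MB-231 held the ETS core about as often as the others, 26 of 56 (46.4%) against 38 of 85 (44.7%), and the GC box did likewise (64.3% and 64.7%). The CCAAT box was in 22 of 56 (39.3%) of those that rose and 49 of 85 (57.6%) of the others, a difference that was not tested. These are matches of letters within the window, and the motifs were searched independently of each other, with overlaps allowed.

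Libraries of MDA-MB-231 held 17156454 to 25124164 counts and those of SUM159PT 14352042 to 20884267. Levels are given as CPM, the counts of a gene scaled to a common library size. The target, YES1, was at 109 ± 3.12 CPM (mean ± SD, n = 4) with sgNTS and 43.1 ± 1.14 CPM with sgYES1 in MDA-MB-231. Its level in SUM159PT was 92.9 ± 3.78 and 39.4 ± 0.870 CPM, so it fell in both lines, as the guide labels have it. The estrogen receptor gene ESR1 was at most 0.257 CPM in any group mean and the progesterone receptor gene PGR had no count, while ERBB2 was at 95.5 to 109 CPM. MDA-MB-231 sgNTS replicate 4 stood apart from the other replicates of its group, with a chi-square per degree of freedom of 9.38 to 29.1 against 3.36 to 6.81 among the other 3. Markers of leukocytes, endothelium and fibroblasts, 7 in all, summed to 13.7 to 18.0 CPM over library totals in MDA-MB-231 sgNTS and 21.7 to 25 in sgYES1. In SUM159PT they summed to 55.4 to 59.2 and 52.6 to 63.5 CPM. Most of that level was COL1A1, which rose in MDA-MB-231 from 15.2 to 20.8 CPM, as did PECAM1 from 1.41 to 2.41 CPM (a call lost in 5 of 13 settings), while DCN rose in SUM159PT from 1.23 to 4.47 CPM. CD3E had no count in any library, and PTPRC was at most 0.232 CPM in any group mean. The part of these markers in the results below was not tested.

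In the control libraries, the members were mostly of low abundance. The sgNTS mean ran from 1.77 to 113 CPM in MDA-MB-231 with a median of 10.1, and from 1.28 to 113 CPM in SUM159PT with a median of 6.39. Levels of different genes can be compared only per length, as CPM per kilobase of the deposited gene length. On that scale ZNF146, which encodes a protein made almost wholly of fingers, led in MDA-MB-231 at 27.0 ± 0.679, above the range of every other member. ZNF787 (20.3 ± 1.43) and ZNF428 (18.6 ± 1.58) overlapped over their 4 libraries, and ZNF865 (12.5 ± 0.370) lay below both and overlapped the next member, ZNF358. In SUM159PT, ZNF787 (31.3 ± 2.63), ZNF580 (25.3 ± 1.40) and ZNF146 (21.2 ± 0.792) did not overlap each other. The next, ZNF579 (18.4 ± 1.40), overlapped ZNF581. The most abundant members per kilobase were thus largely the same few genes in both lines, in a different order.

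**Figure D1:**
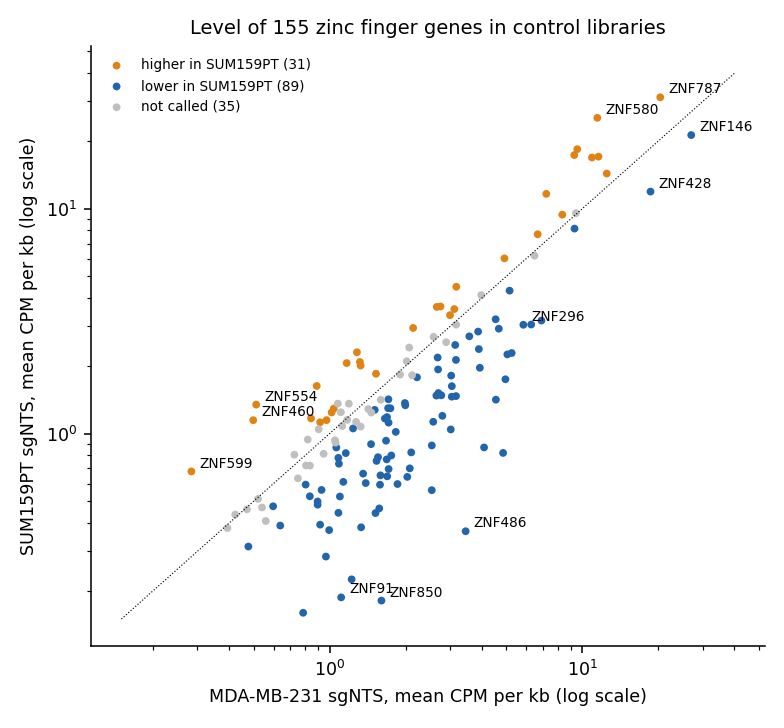
Mean level of each of 155 zinc finger genes in the 4 sgNTS libraries of MDA-MB-231 (x axis) and SUM159PT (y axis), in CPM per kilobase on log scales, with equality as a dotted line. Most points lie under the line: 89 genes were called lower in SUM159PT (blue), 31 higher (orange) and 35 neither (grey).

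Between the control libraries, 120 of 155 members differed by line in the fit over 16 libraries (81.8% of all 16640 genes tested did). SUM159PT was lower for 89 (41.3% of all genes were) and higher for 31 (40.5% of all genes were). Since the count limit set a floor on the level of each member in both lines, these numbers describe the members and test nothing. Their median log2 difference was -0.40, beside -0.01 over all genes, 0.11 over 201 ZNF genes of other chromosomes and 0.15 over 608 other protein-coding genes of chromosome 19. The line and the count table it came from cannot be told apart in this comparison. The rule also leaves out genes that 1 line barely used. The 50 genes that passed in MDA-MB-231 only had a median sum of 718 counts there and 38.5 in SUM159PT, and 17 of them had under 10 counts in SUM159PT. One of the 50 was ZNF93, which encodes a repressor of LINE-1 elements, with 1574 counts in MDA-MB-231 and 27 in SUM159PT, a gene chosen after its values were seen.

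ZNF486 showed the widest gap. It was at 15.5, 14.7, 14.8 and 14.6 CPM in MDA-MB-231 sgNTS replicates 1 to 4 and at 1.69, 1.26, 1.55 and 1.69 CPM in SUM159PT. No SUM159PT library came near those of MDA-MB-231, and the log2 difference was -3.22 (SE 0.13). ZNF850 (-3.10, SE 0.19) and ZNF91, whose protein represses SVA elements (-2.59, SE 0.18), followed. At the other end stood ZNF554 (1.38, SE 0.16), ZNF599 (1.22, SE 0.19) and ZNF460 (1.21, SE 0.16), each higher in every SUM159PT control library than in any of MDA-MB-231.

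After the YES1 guide, many members rose in MDA-MB-231, most by a small amount. Of 155 tested, 58 rose (37.4%, where 20.8% of all 15427 genes tested rose) and 2 fell (1.29%, against 22.1%), by edgeR's quasi-likelihood test at an adjusted p under 0.05. The median log2 fold change was 0.17, with quartiles of 0.04 and 0.30 and a range from -0.26 to 0.95, beside a median of 0.01 over all genes tested and -0.02 over 10772 protein-coding genes over the same count limit. The fitted change was above 0 for 127 members (81.9%) and for 51.3% of all genes tested. It was above 0 for 68.2% of 201 ZNF genes of other chromosomes and 59.2% of 608 other protein-coding genes of chromosome 19. Of the rises, 3 reached 1.5-fold, those of ZNF296, ZNF446 and ZNF554 (7.2% of all genes rose that far). In bulk RNA, a change in the number of cells that use a gene and a change in its RNA per cell cannot be told apart.

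The same values can also be read by library, without any call. The CPM of all members summed to 2222, 2260, 2218 and 2235 in MDA-MB-231 sgNTS replicates 1 to 4 and to 2572, 2516, 2519 and 2461 in the sgYES1 replicates. Every sgYES1 library lay above every sgNTS library. In the sgYES1 libraries, 115 to 129 of the 155 members were above their sgNTS mean. In single sgNTS libraries 74 to 88 were, near the middle by construction, since these libraries set that mean. The same count over other genes is not given here. For 52 members all sgYES1 values exceeded all sgNTS values (18.8% of all genes), and for 1 they all lay below (20.4%). Without sgNTS replicate 4, which stood apart, 54 members rose, 1 fell and the median was 0.16.

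**Figure D2:**
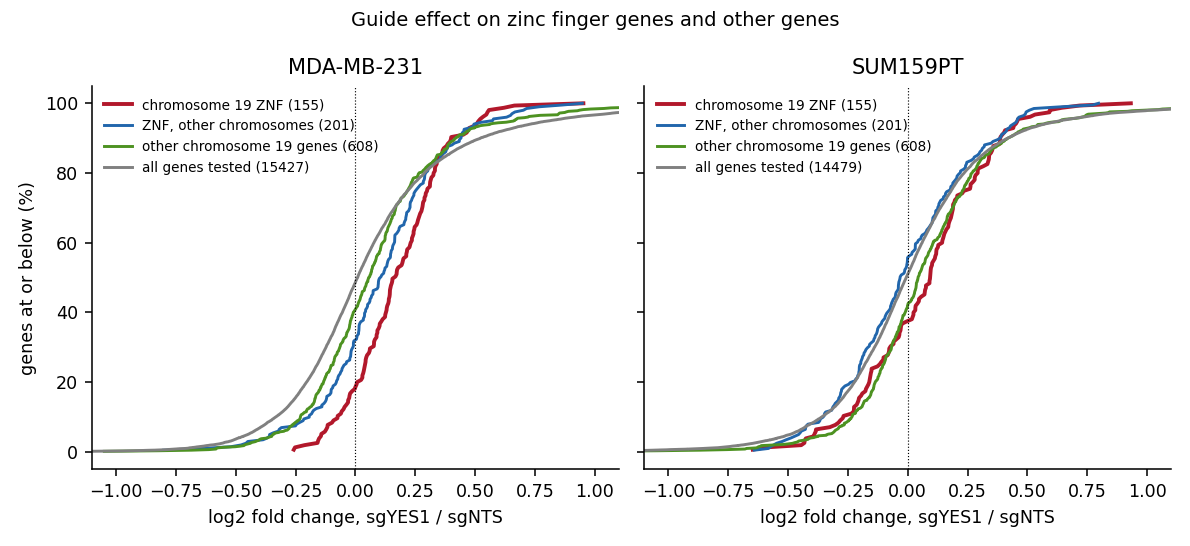
Cumulative share of genes (y axis, percent) at or below each log2 fold change of sgYES1 over sgNTS (x axis, shown from -1.1 to 1.1), for 155 chromosome 19 zinc finger genes, 201 ZNF genes of other chromosomes, 608 other chromosome 19 genes and all genes tested. In MDA-MB-231 the curve of the chromosome 19 zinc finger genes crosses the middle at 0.17, to the right of the others, and in SUM159PT at 0.09.

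At 5 CPM or more in sgNTS, members rose more often than all genes did, and below that level they did not. Members at 10 CPM or more in sgNTS rose in 33 of 78 cases (42.3%), where 18.8% of all genes at that level rose. At 5 to 10 CPM, 19 of 47 rose (40.4%, against 23.8%), and at 2 to 5 CPM 6 of 28 did (21.4%, against 23.6%). Under 2 CPM, 0 of 2 did (against 24.5%). From the highest level to the lowest, the median over all genes was -0.04, 0.05, 0.14 and 0.29. That of the members was 0.14, 0.18, 0.21 and 0.03. ZNF genes on other chromosomes gave 63 rises and 21 falls among 201, with a median of 0.11. Other protein-coding genes of chromosome 19 gave 195 rises and 121 falls among 608, with a median of 0.06. Exons of 84 members overlap another gene in GENCODE 29, and since it is not given whether counting used strand, reads of such pairs cannot be told apart. Among the 71 without overlap, 27 rose and 1 fell, with a median of 0.17.

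ZNF296, known from pluripotent cells as a partner of KLF4, rose most in MDA-MB-231. It was at 10.3, 9.97, 10.5 and 10.5 CPM in sgNTS replicates 1 to 4 and at 20.3, 20.9, 19 and 19.8 CPM in the sgYES1 replicates. The groups were far apart with little spread within either. The rise was 1.93-fold (log2 fold change 0.95, SE 0.07, adjusted p = 8.21e-08). Its exons overlap GEMIN7-AS1 on the same strand, so its value is uncertain to that extent.

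ZNF446, a gene with SCAN and KRAB domains, was at 5.16, 4.51, 5.51 and 5.14 CPM in sgNTS and at 8.20, 8.72, 7.93 and 7.48 CPM in sgYES1. Its rise was 1.58-fold (0.66, SE 0.10), without overlap between the groups, although it shares exons with ZNF324, SLC27A5 and AC012313.7. ZNF554 was at 2.29, 2.07, 2.41 and 2.95 CPM in sgNTS and at 3.56, 4.27, 3.40 and 3.82 CPM in sgYES1 (0.62, SE 0.15). It was one of the less abundant members, and its lowest sgYES1 library still lay above its highest sgNTS library.

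The next rises were those of ZNF383 (0.56, SE 0.09), ZNF600 (0.55, SE 0.08) and ZNF329 (0.53, SE 0.10), none of which had overlapping groups. ZNF383 shares exons with ZNF585B on the other strand. ZNF600 went from 10.1 to 12.1 CPM across sgNTS libraries to 14.5 to 17.1 CPM across sgYES1 libraries. Of the 2 members that fell, ZNF700 was at 13.4, 13.5, 12.4 and 13.5 CPM in sgNTS and at 11.8, 11.3, 11 and 10.5 CPM in sgYES1 (-0.25, SE 0.07, adjusted p = 0.0122). The other was ZNF714 (-0.21, SE 0.08, adjusted p = 0.0411), whose groups overlapped. It is named because only 2 fell, and its call was lost in 8 of 13 other settings, among them library totals, DESeq2, the replicate number as a block and omission of MDA-MB-231 sgNTS replicates 2 or 4 or sgYES1 replicates 2, 3 or 4 (adjusted p 0.0511 to 0.125). Both declines were small beside the rises above.

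In SUM159PT the same guide moved fewer members, and in both directions. Of 155 tested, 26 rose (16.8%, where 19.6% of all 14479 genes tested rose) and 11 fell (7.10%, against 19.7%). The share that rose was therefore close to that over all genes, and the share that fell was below it. Rises of 1.5-fold or more came to 5, those of ZNF296, ZNF850, ZNF443, ZNF468 and ZNF823 (4.72% of all genes rose that far). The call of ZNF850 (0.72) was lost with DESeq2 and without any of SUM159PT sgNTS replicates 1 and 3 and sgYES1 replicates 1, 2 and 3 (adjusted p 0.0686 to 0.122). The median log2 fold change was 0.09, with a range from -0.65 to 0.93, beside -0.01 over all genes. It was -0.03 over the 201 ZNF genes of other chromosomes, of which 35 rose and 40 fell. Of 608 other protein-coding genes of chromosome 19, 191 rose (31.4%) and 101 fell (16.6%), with a median of 0.04. With library totals as the only scaling, 33 members rose and 8 fell, so upward calls made up 80.5% of the members' calls in place of 70.3%. Over all genes that scaling moved the upward share from 49.9% to 56.7%. The number that fell rested on single libraries: it was 4 without SUM159PT sgNTS replicate 1, 7 without sgNTS replicate 3, and 6 by DESeq2.

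The summed level overlapped between guides in this line. It was 1860, 1742, 1860 and 1782 CPM in SUM159PT sgNTS replicates 1 to 4 and 1896, 1886, 1933 and 1837 CPM in the sgYES1 replicates. Replicates 2 and 4 of sgNTS were the lowest, and sgYES1 replicate 4 lay below sgNTS replicates 1 and 3. Groups did not overlap for 22 members that were higher (17.7% of all genes) and 7 that were lower (17.6%). Without sgNTS replicate 2, which had the lowest sum, 19 members rose and 10 fell.

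ZNF296 again rose most. It was at 6.29, 5.29, 4.72 and 4.70 CPM in sgNTS and at 10.9, 9.29, 11.1 and 8.67 CPM in sgYES1, without overlap (1.91-fold, log2 fold change 0.93, SE 0.13, adjusted p = 5.18e-06). The difference from its effect in MDA-MB-231 was -0.03, with a 95% interval from -0.32 to 0.25. ZNF468, which lies on the long arm, was at 7.39, 6.97, 7.11 and 7.31 CPM in sgNTS and at 13.5, 10.7, 10.8 and 8.47 CPM in sgYES1 (0.59, SE 0.12), so the sgYES1 libraries were spread widely above a tight control group. It shares exons with ZNF28, ZNF320 and AC010487.3.

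ZNF443 (0.64, SE 0.22) and ZNF823 (0.59, SE 0.20) rose from mean levels of 1.36 and 2.00 CPM, and neither call held in every setting. DESeq2 did not call ZNF443, nor did edgeR once sgNTS replicates 2 or 4, or sgYES1 replicates 1 or 2, were left out singly in SUM159PT (adjusted p 0.0514 to 0.0865). ZNF823 likewise lost its call with DESeq2 and on omission of any of sgNTS replicates 1 and 2 and sgYES1 replicate 2 (adjusted p 0.0545 to 0.0837). ZNF443 shares exons with AC008758.5 and AC008758.6. In MDA-MB-231 neither was called (-0.03 and 0.01).

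ZNF766 fell most in SUM159PT. It was at 15.7, 15.2, 14.8 and 14.6 CPM in sgNTS and at 9.42, 9.82, 10.5 and 8.86 CPM in sgYES1. These groups were well separated, and the log2 fold change was -0.65 (SE 0.09, adjusted p = 6.63e-06). ZNF837 was at 3.11, 2.40, 2.39 and 2.71 CPM in sgNTS and at 1.35, 1.52, 1.89 and 2.24 CPM in sgYES1 (-0.60, SE 0.21), at a level where few reads stand behind each value. DESeq2 did not call it, and omission of any of sgNTS replicates 1 and 4 and sgYES1 replicates 1 and 2 in SUM159PT ended the call (adjusted p 0.0574 to 0.0838).

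ZNF181 (-0.45, SE 0.13), ZNF333 (-0.29, SE 0.10) and ZNF507 (-0.27, SE 0.06) fell as well, without overlap. The call of ZNF181 was lost without SUM159PT sgNTS replicate 1 (adjusted p = 0.0538), and that of ZNF333, which shares exons with ADGRE2 and ADGRE3, on omission of sgNTS replicates 1 or 3 or of sgYES1 replicate 1 (adjusted p 0.0587 to 0.0658). ZNF507 was among the more abundant members, at 37.6 to 42.5 CPM in sgNTS and 31.5 to 33.6 CPM in sgYES1, and kept its call in each setting tried.

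**Figure D3:**
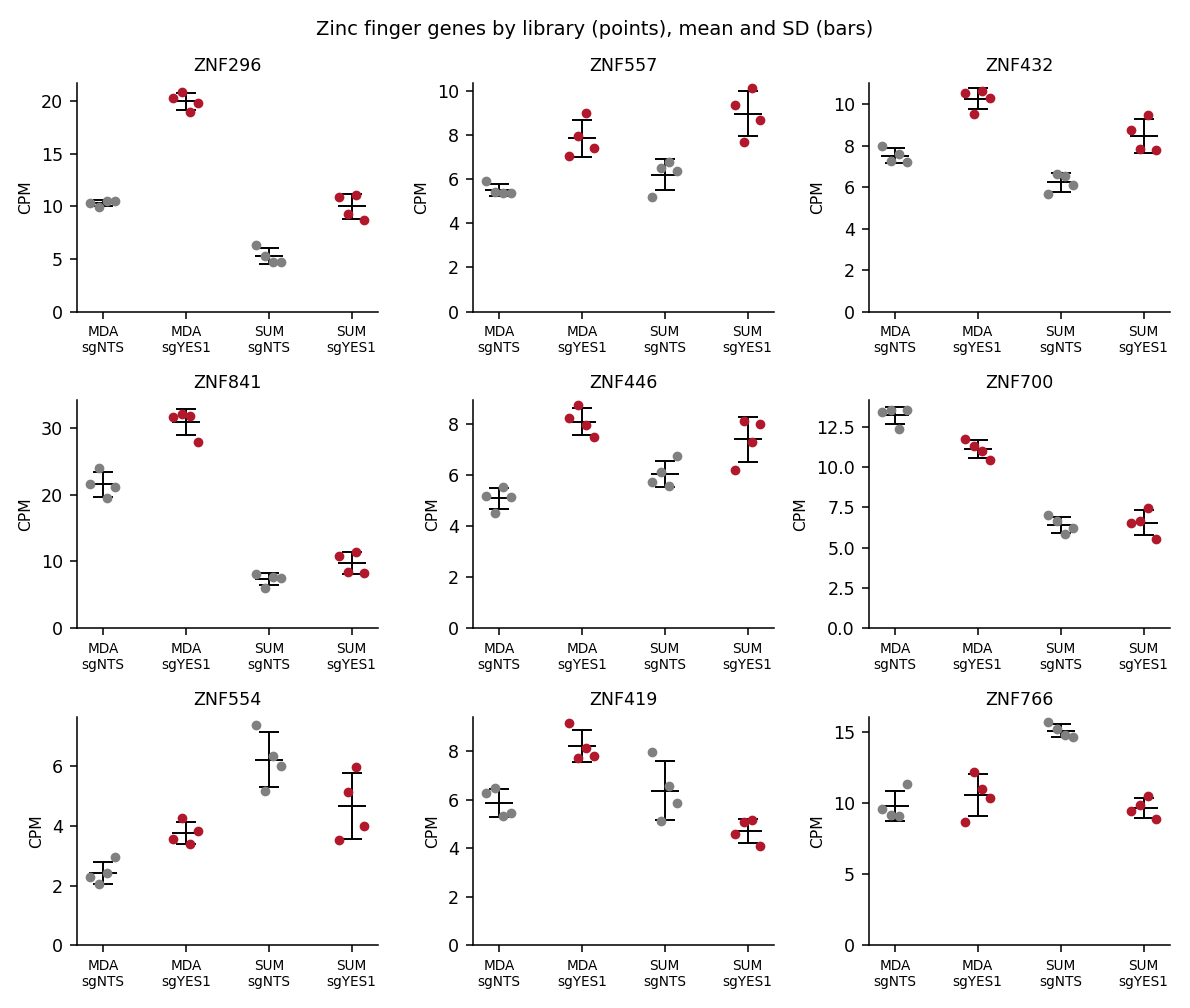
CPM (y axis, from 0) of 9 zinc finger genes in each library (points), with the mean and SD of 4 libraries (bars), by line and guide (sgNTS grey, sgYES1 red). ZNF296, ZNF557, ZNF432 and ZNF841 sat higher in sgYES1 in both lines, ZNF446 rose and ZNF700 fell in MDA-MB-231, ZNF766 fell in SUM159PT, and ZNF554 and ZNF419 rose in MDA-MB-231 while their SUM159PT points overlap between guides.

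Both lines together gave 17 members that rose in each, which is 11% of 155, where 8.28% of the 13390 genes tested in both lines rose in each. These were 29.3% of the members that rose in MDA-MB-231 and 65.4% of those that rose in SUM159PT. No member fell in both by edgeR (8.56% of all genes did), also at an unadjusted p under 0.05 and by DESeq2 (0 each). A further 6 members rose in MDA-MB-231 and fell in SUM159PT, and 0 did the reverse (4.43% of all genes went in opposite directions), again with 0 at an unadjusted p under 0.05 and by DESeq2. Only 2 members fell in MDA-MB-231, so neither of these counts of 0 could have exceeded 2. By DESeq2, 14 members rose in both lines and the count in opposite directions was 2. Among the 6, ZNF558 kept both calls in every setting tried. In MDA-MB-231, the call of ZNF333 (0.24) was lost in 8 of 13 settings and that of ZNF837 (0.40) in 6, DESeq2 and the omission of sgNTS replicate 4 being among them for both. Over the 155 members, the changes in the 2 lines were weakly related (Pearson r 0.15, Spearman rho 0.14), and 79 were above 0 in both lines.

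ZNF557 was at 5.91, 5.41, 5.40 and 5.35 CPM in MDA-MB-231 sgNTS and at 7.07, 7.96, 9.0 and 7.40 CPM in sgYES1 (0.51, SE 0.10). In SUM159PT it was at 5.19, 6.49, 6.76 and 6.39 CPM and then at 9.37, 7.71, 10.1 and 8.67 CPM (0.53, SE 0.12). All sgYES1 libraries were above all sgNTS libraries of the same line, and no exon of this gene overlaps another gene.

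ZNF432, which encodes a KRAB protein that binds poly(ADP-ribose), was at 7.19 to 7.99 CPM in MDA-MB-231 sgNTS and 9.52 to 10.7 CPM in sgYES1 (0.45, SE 0.08). In SUM159PT it went from 5.64 to 6.61 CPM to 7.79 to 9.46 CPM (0.44, SE 0.11). Its neighbour ZNF841 had 0.51 (SE 0.07) and 0.41 (SE 0.13), but these genes share exons, and reads from them may be split or shared. The call of ZNF841 in SUM159PT was lost without SUM159PT sgYES1 replicate 3 (adjusted p = 0.0624).

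ZNF317, a more abundant member, was at 44.4 to 50.4 CPM in MDA-MB-231 sgNTS and 57.9 to 67.2 CPM in sgYES1 (0.38, SE 0.05). In SUM159PT it was at 38.3 to 42.8 and 49.4 to 52.7 CPM (0.34, SE 0.06). Its change was the most tightly measured of those shared by the 2 lines among the members named here. ZNF576 had 0.34 (SE 0.09) and 0.39 (SE 0.08), with exons shared with SRRM5.

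**Figure D4:**
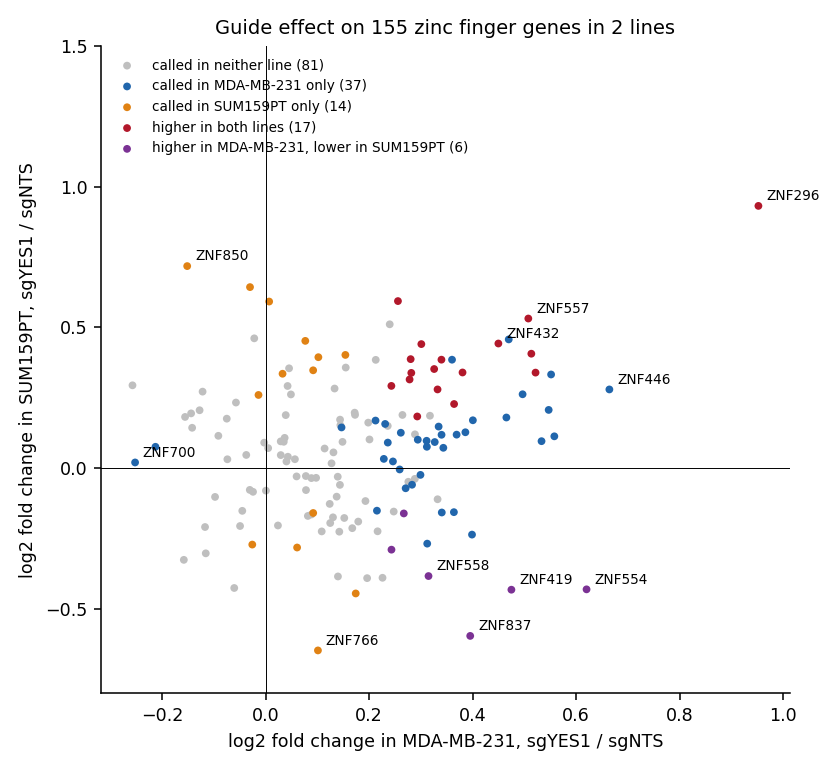
Log2 fold change of sgYES1 over sgNTS in MDA-MB-231 (x axis) and SUM159PT (y axis) for 155 zinc finger genes, 1 point each. The 17 genes called higher in both lines (red) include ZNF296 at the far upper right, the 6 called higher in MDA-MB-231 and lower in SUM159PT are purple, and 81 were called in neither line (grey).

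The effect of the guide differed between lines for 22 members by the test of the interaction. For 18 it was lower in SUM159PT (11.6%, where 11.9% of all 16640 genes were) and for 4 higher (2.58%, against 12.7%). ZNF genes on other chromosomes gave 44 lower and 11 higher among 201, with a median difference of -0.11, close to the members' -0.12. The 4 members with a higher effect in SUM159PT were ZNF443, ZNF850, ZNF574 and ZNF544, of which the latter pair is named because the count is small.

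ZNF419 went apart in the 2 lines. In MDA-MB-231 it was at 6.28, 6.47, 5.34 and 5.44 CPM in sgNTS and at 9.17, 7.73, 8.12 and 7.79 CPM in sgYES1 (0.47, SE 0.10). In SUM159PT it was at 7.98, 5.11, 6.55 and 5.86 CPM and then at 4.59, 5.07, 5.15 and 4.09 CPM (-0.43, SE 0.15), with sgNTS replicate 2 inside the range of sgYES1. This decline was no longer called without SUM159PT sgNTS replicate 1 (adjusted p = 0.112) or sgYES1 replicate 4 (adjusted p = 0.0695). The difference between lines was -0.92 (95% interval -1.28 to -0.55, adjusted p = 0.000425), and the gene shares exons with AC003005.1.

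ZNF558, a KRAB gene known as a repressor of SPATA18, was at 21.5, 22.9, 22.6 and 22.1 CPM in MDA-MB-231 sgNTS and at 28.1, 29.6, 28.9 and 24.5 CPM in sgYES1 (0.31, SE 0.06). In SUM159PT it was at 17.8, 12.3, 18.4 and 13.8 CPM and then at 11.7, 10.9, 12.4 and 12.5 CPM (-0.38, SE 0.11), where sgNTS replicate 2 again lay inside the range of sgYES1. Exons of AC008734.1 overlap it on the other strand. The difference was -0.71 (95% interval -0.99 to -0.43, adjusted p = 0.000385). ZNF557, whose promoter is printed beside that of ZNF558, differed between lines by 0.01 (95% interval -0.32 to 0.34).

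Of the 6 members with the smallest p of the difference, ZNF554 had the widest (-1.06, 95% interval -1.53 to -0.59, adjusted p = 0.00122). Its SUM159PT libraries were at 7.39, 5.17, 6.34 and 6.00 CPM in sgNTS and at 3.53, 5.14, 5.97 and 3.99 CPM in sgYES1, so the groups overlapped there (-0.43, SE 0.16, adjusted p = 0.0365). DESeq2 did not call this decline (adjusted p = 0.0747), nor did edgeR on omission of any of SUM159PT sgNTS replicates 1, 3 and 4 and sgYES1 replicates 1 and 4 (adjusted p 0.0599 to 0.134). ZNF837 differed by -1.0 (adjusted p = 0.00236) and ZNF766 by -0.76 (adjusted p = 0.000218). ZNF580, one of the most abundant members, differed by -0.44 (adjusted p = 0.000879) and shares exons with ZNF581 and CCDC106. Its decline in SUM159PT (-0.16) was lost with library totals, with DESeq2 and without any of sgNTS replicates 2 and 3 and sgYES1 replicates 1 and 3 (adjusted p 0.0662 to 0.166).

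Along the chromosome, the ZNF genes fall into 16 groups separated by gaps of more than 1 Mb in hg38, and 14 of these hold members. Counts within them can be read against all genes tested, of which 20.8% rose and 22.1% fell in MDA-MB-231, and 19.6% and 19.7% in SUM159PT. The 2 groups nearest the end of the long arm hold the most members. The group from 51571298 to 53580269 holds 27 members, and in MDA-MB-231 13 of them rose and 0 fell, with a median of 0.25. The group from 55476332 to 58481230, at the end of the arm, holds 45, of which 20 rose and 0 fell, with a median of 0.21. In SUM159PT the same groups gave 7 rises and 1 fall with a median of 0.18, and 7 rises and 3 falls with a median of 0.10. The rises of the last group thus made up a smaller share there than over all genes.

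A smaller share of members was called beside the centromere on the short arm than in the 2 groups nearest the end of the long arm. Some long-arm groups were alike in MDA-MB-231. From 43525497 to 45076588, 3 of 15 members rose and 0 fell. From 34677639 to 34964049 and from 39984134 to 40090938, 0 of 4 and 0 of 3 members were called. The group from 19668796 to 24129961, the fifth along the chromosome, lies beside the centromere on the short arm and holds ZNF91 and ZNF486. It has 37 ZNF genes and 14 members. Of these 14, 2 rose and 1 fell in MDA-MB-231 (median 0.07), and 0 were called in SUM159PT (median 0.02), also at an unadjusted p under 0.05 and by DESeq2. Their counts summed over all SUM159PT libraries ran only from 203 (ZNF486) to 1702 (ZNF431). Of all 50 members at 2 to 5 CPM in SUM159PT sgNTS, 2 rose (4%) and 1 fell (2%) in that line. Of all genes tested at that level, 14.1% rose and 8.21% fell. Of the 12 members under 2 CPM, 2 rose (16.7%) and 0 fell, where 17.2% of all genes at that level rose and 3.53% fell. The part of low counts in the 0 calls of this group was not tested. This same group had the lowest control level in SUM159PT relative to MDA-MB-231, with 12 of 14 members lower, 0 higher (0 also at an unadjusted p under 0.05 and by DESeq2) and a median log2 difference of -1.31. Of its 37 genes, 25 passed the count limit in MDA-MB-231 and 15 in SUM159PT. Over all genes, 41.3% were lower and 40.5% higher in SUM159PT control libraries. Most members were also lower in other groups. These were 12 of 15 (0 higher) from 36182060 to 37817300 and 21 of 27 (1 higher) from 51571298 to 53580269. They were 10 of 15 (2 higher) from 43525497 to 45076588 and 8 of 11 (2 higher) from 11483427 to 12640098. Some went the other way, such as the first, from 2819874 to 2944971, with 2 of 4 higher and 0 lower.

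By contrast, the group at the end of the long arm was balanced between the control lines, with 17 members higher and 15 lower in SUM159PT and a median of 0.05. In the group from 11483427 to 12640098, which holds 11 members, 3 rose and 1 fell in MDA-MB-231 (median 0.01) and 4 rose and 1 fell in SUM159PT (median 0.18). The 12 members from 7069444 to 9793180, which include ZNF557, ZNF558 and ZNF317, gave 8 rises and 0 falls in MDA-MB-231 (median 0.23) and 3 rises and 1 fall in SUM159PT (median 0.05). The counts of 0 falls in MDA-MB-231 in this group and in both groups of the long arm were also 0 at an unadjusted p under 0.05 and by DESeq2. Differences between groups of genes along the chromosome were not tested.

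**Figure D5:**
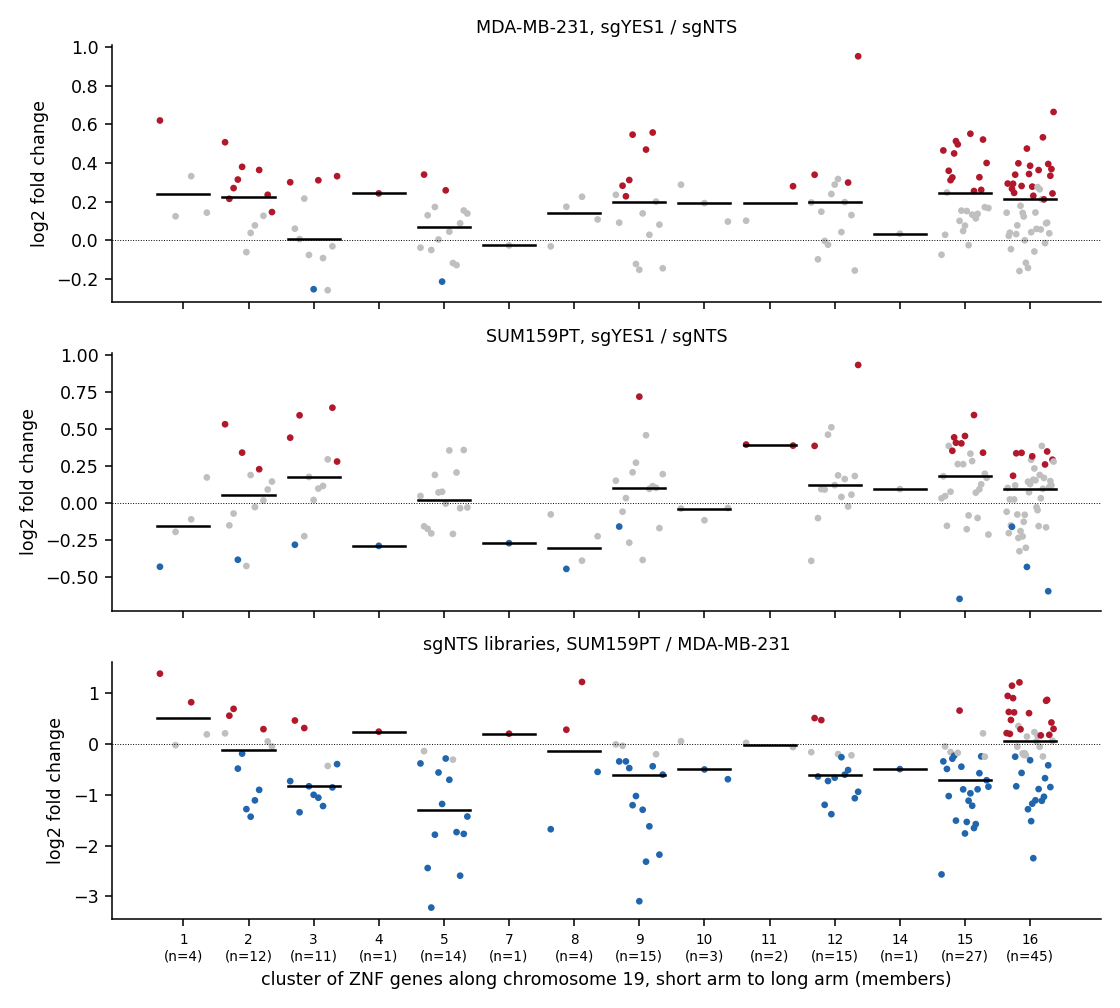
Log2 fold change (y axis) of each member (points) by group of ZNF genes along chromosome 19 (x axis, from the short to the long arm, with the number of members), for the guide in each line and for SUM159PT over MDA-MB-231 control libraries. Red points were called higher, blue lower and grey neither, and the bar is the median, which is -1.31 for group 5 in the control comparison and 0.21 for group 16 in MDA-MB-231.

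Among genes through which KRAB proteins silence chromatin, falls outnumbered rises in MDA-MB-231. Of a list of 30, 16 fell (53.3%) and 1 rose (3.33%) there, with a median of -0.12. Over all genes tested 22.1% fell and 20.8% rose, and of those at 10 CPM or more 31.3% fell. The 1 that rose was DAXX (0.10), named for that reason, a call lost in 9 of 13 settings, DESeq2 among them. In SUM159PT 6 of the list rose (19.6% of all genes did) and 8 fell (26.7%, against 19.7%), with a median of -0.01, so these shares were nearer those over all genes. Of all genes at 10 CPM or more in SUM159PT sgNTS, 21.4% rose and 26.4% fell. TRIM28, the KRAB scaffold, fell in MDA-MB-231, where it was at 835 ± 16.7 CPM with sgNTS and 725 ± 48.2 CPM with sgYES1 (-0.20, SE 0.04, adjusted p = 0.00153). In SUM159PT it rose, with 873 ± 18.5 and 961 ± 55.3 CPM (0.14, SE 0.04, adjusted p = 0.00756). The effect on it differed between the lines (0.33, adjusted p = 0.000328). SETDB1, the methyltransferase, was called in neither line (0.07 and -0.02).

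UHRF1, which guides maintenance of DNA methylation, fell in MDA-MB-231 (-0.43, SE 0.04) and rose in SUM159PT (0.29, SE 0.05). The maintenance methyltransferase gene DNMT1 fell in the former (-0.35, SE 0.03) and was not called in the latter (-0.07). RBBP7, a histone chaperone of several corepressor complexes, fell in both lines (-0.37 and -0.26), as did MTA1, a subunit of the NuRD complex (-0.25 and -0.39). CBX1, an HP1 gene, fell in MDA-MB-231 (-0.28), and ATF7IP, the partner of SETDB1, fell in SUM159PT (-0.29). These genes are also expressed for other purposes, such as replication of chromatin, and their part in the members' change was not tested.

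Relatives with other zinc finger names on chromosome 19 (ZFP, ZIK, ZIM, ZSCAN, ZBTB) number 18. Of 11 tested in MDA-MB-231, ZBTB7A (0.12) and ZSCAN22 (0.31) rose and 0 fell, a share of rises (18.2%) near the 20.8% over all genes. DESeq2 did not call ZBTB7A there, a call lost in 7 of 13 settings. Of 7 tested in SUM159PT, ZBTB7A (0.27), ZBTB45 (0.28), ZSCAN22 (0.35) and ZSCAN5A (0.52) rose and 0 fell (19.6% of all genes rose). The call of ZSCAN22 was lost in that line without sgNTS replicate 4 or sgYES1 replicate 4 (adjusted p 0.0661 and 0.0506). Several relatives were present in MDA-MB-231 control libraries and nearly or wholly without counts in SUM159PT. ZSCAN18 was at 26.1 CPM in the former and had no count in the latter, and ZFP28 was at 15.4 and 0.0149 CPM. ZFP30 (13.5 and 1.34 CPM), ZFP82 (9.95 and 0.604 CPM) and ZFP14 (2.42 and 0.203 CPM) followed the same direction, while ZFP36, which belongs to another class of zinc finger, was at 19.4 and 77.3 CPM. ZSCAN5A (2.82 and 4.04 CPM) and ZBTB45 (28.5 and 31.5 CPM) were also called higher in SUM159PT. Of 11 relatives tested between control lines, 7 were lower there and 3 higher (41.3% and 40.5% of all genes were).

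The longest GENCODE 29 transcripts of the members had a median GC content of 42.9%, beside 45.8% for ZNF genes of other chromosomes and 48.4% for protein-coding genes over the count limit. The AU-rich pentamer ATTTA, a feature of some unstable mRNAs, occurred at a median of 1.22, 1.11 and 1.06 per kilobase in these sets. Half-lives of the mRNAs were not measured here. Over the 155 members, the log2 fold change was weakly related to ATTTA content (Pearson r -0.11 in each line) and to GC content (0.17 in MDA-MB-231 and 0.01 in SUM159PT), all correlations across genes that share libraries.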

How the data were processed

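RNA of 16 samples of 2 lines was sequenced, and the authors deposited raw counts of each gene, 1 table for each line. Their aligner was HISAT2 2.0.5, their counter featureCounts 1.5.0-p3 and their genome hg38, per the submitters' processing notes. The labels' protocol covers directional and non-directional libraries. How the counter treated strand and reads with several matches is not given in the sources used, which leaves overlapping genes and close zinc finger paralogs uncertain. All 58735 genes carry the ID, start and end of GENCODE 29. A column's sample was read from its guide and replicate and from the line that its table names.

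The test of counts was edgeR's quasi-likelihood F-test (edgeR 4.0.16, R 4.3.3), two-sided, with TMM scaling. It ran on every gene that passed filterByExpr (minimum count 10, minimum total 15), and a call is a Benjamini-Hochberg adjusted p under 0.05 over all of them. The effect of the guide was fitted separately in the 8 libraries of each line, with no other term. The difference between lines (SUM159PT minus MDA-MB-231) and the comparison of control lines came from a fit of all 16 libraries. CPM values are TMM-scaled within a line, except those per kilobase, which are scaled over 16 libraries, and those said to use library totals. An error after ± is the SD over 4 libraries. YES1 had an exact permutation p of 0.0286 (two-sided) in both lines, and no smaller value exists for 4 against 4. The code was tested on simulated data.

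Promoters came from a RefSeq table, matched by symbol. One marker of another cell type is not reported here. The members and lists were chosen with earlier results of these data known. Members named are the 6 highest and 6 lowest changes in each line among called members without overlap, up to 6 called in both lines, the 6 smallest p of the difference, the 4 highest levels per kilobase in each line, the 3 genes on either side of the count limit and the 3 highest and lowest in the control comparison. Outside the members they are YES1, TRIM28, SETDB1 and up to 4 corepressor genes with the smallest p in each line. Others are said to be named for another reason, or belong to a list or small count described in full. The alternatives tried were DESeq2 1.42.0, library totals, no filter, 1 fit of all 16 libraries, the replicate number as a block, leaving out each library, and members without exon overlap.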

Additional observations from a re-analysis of the deposited data

Results flagged for a closer look

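Among the 33 members named by rule, 132 groups of 4 libraries were examined for a library far from the other 3, and 8 had one. How many groups chance alone would flag was not tested, and groups of different genes share the same libraries. In MDA-MB-231 sgNTS, these were ZNF700 in replicate 3 (12.4 CPM, others 13.4 to 13.5), ZNF823 in replicate 2 (5.73, others 5.05 to 5.10) and ZNF557 in replicate 1 (5.91, others 5.35 to 5.41). In MDA-MB-231 sgYES1, they were ZNF507 in replicate 1 (37.7 CPM, others 33.6 to 34.1) and ZNF841 in replicate 4 (27.9, others 31.6 to 32.0). In SUM159PT sgYES1, ZNF443 stood apart in replicate 3 (1.72 CPM, others 2.19 to 2.24) and ZNF823 in replicate 2 (3.76, others 2.73 to 2.90). In SUM159PT sgNTS, ZNF91 stood apart in replicate 3 (2.89 CPM, others 1.55 to 1.62).

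The effect of the guide differed between lines for 15 of the 33 members, by the edgeR test of the interaction, which called 24.5% of all 16640 genes and 22 of all 155 members. The 33 were picked in part for the smallest p of this same test, so 15 of 33 is no measure of how often members differ. Subtracting the log2 effect of MDA-MB-231 from that of SUM159PT gave -1.06 for ZNF554, -1.0 for ZNF837, -0.92 for ZNF419, -0.76 for ZNF766, -0.71 for ZNF558 and -0.44 for ZNF580, the members chosen for the smallest p. It was -0.63 for ZNF181 (adjusted p = 0.00834), -0.54 for ZNF333 (0.00392), -0.46 for ZNF383 (0.0272), -0.45 for ZNF329 (0.0408), -0.26 for ZNF146 (0.0123), -0.26 for ZNF507 (0.0356) and -0.23 for ZNF787 (0.0353). It was above 0 for ZNF443 (0.67, adjusted p = 0.044) and ZNF850 (0.84, adjusted p = 0.0261), both among the less abundant members in SUM159PT. Of these, the differences of ZNF383, ZNF329, ZNF507, ZNF787 and ZNF443 were not called by DESeq2 and were lost in 10 to 16 of 20 settings, among them the omission of single libraries of both lines. That of ZNF146 was lost without MDA-MB-231 sgNTS replicate 3 or sgYES1 replicate 2, or SUM159PT sgNTS replicates 1 or 3 or sgYES1 replicate 2 (adjusted p 0.0511 to 0.0847). That of ZNF850 was lost without SUM159PT sgNTS replicate 3 (adjusted p = 0.0581) or sgYES1 replicate 1 (adjusted p = 0.0644).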

How the results depend on the processing

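Of 38 results for named members, 32 kept direction and call in each setting tried and 0 reversed, and the other 6, all in SUM159PT, are named with their libraries above. The same settings, applied after seeing the data to 44 other calls that the text names, kept 25 in each setting, ended 19 in at least 1 and changed the sign of 0. The count of members that fell in MDA-MB-231 was 1 by DESeq2, with library totals and with the replicate block, and 1 to 2 without single libraries, against 2. The median change there was 0.21 with library totals, 0.14 without a filter and 0.16 to 0.19 without single libraries, against 0.17. In SUM159PT the count that fell was 6 by DESeq2 and 4 to 10 without single libraries, against 11. Leaving out single libraries gave 48 to 56 rises in MDA-MB-231, 19 to 29 in SUM159PT, 13 to 21 in both lines and 16 to 22 differences between lines. In the control comparison it gave 26 to 31 members higher and 86 to 93 lower. Same-numbered libraries of the 2 guides showed no strong pairing (correlations of -0.25 to 0.14 in MDA-MB-231 and -0.00 to 0.11 in SUM159PT). Still, replicate 2 in MDA-MB-231 and replicates 1 and 4 in SUM159PT matched best with their own number. With the replicate block 54 members rose in MDA-MB-231, 27 rose and 13 fell in SUM159PT, 16 rose in both and 21 differed between lines. It changed no call among the 32 results for members named by rule to which it was applied. Among the other calls examined, it ended those of ZNF714, ZNF333, DAXX and PECAM1 in MDA-MB-231. It also ended the differences between lines of ZNF329, ZNF507 and ZNF443. Library totals moved the median of all genes by 0.05 in MDA-MB-231 and 0.03 in SUM159PT; 69 members then rose in MDA-MB-231, and 25.6% of all genes rose there in place of 20.8%. Alternatives for the control comparison and for exon overlap were chosen after seeing the data. Low counts limit members under about 5 CPM, where 62 of 155 lay in SUM159PT sgNTS, so a change there may go undetected at this depth.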
